A study of Mus musculus with 12 samples.

Results

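Mutyh, the gene that was knocked out in 6 of the 12 tumours of this study, lies on mouse chromosome 4. The probes described here are all non-control array probes in a window of about 41 Mb around it, with the first at 96003188 and the last ending at 136995823. The 159 probes of the Skint gene cluster, from 111501058 to 113876179, and the 2 probes named Mutyh were left out. This rule used no measured value, although it was chosen with earlier results of these data known. It gave 3130 probes, of 161460 autosomal probes in all. Knockout and wild-type tumours differed at 69 of the 3130 probes, 53 lower and 16 higher in the knockouts. The differing probes lay between 105.97 and 124.9 Mb, a stretch of 18.92 Mb that held Mutyh and in which most probes did not differ.

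The Mutyh protein is a repair enzyme that cuts out adenine where it has been paired with oxidised guanine. Knockout alleles are commonly made in embryonic stem cells, and when a mouse line is then crossed to another strain the chromosome around the targeted gene tends to keep DNA of the stem cell donor, because nearby sequence is inherited together. Such flanking DNA is called passenger sequence. The labels give C57BL/6 as the strain of every mouse and name no stem cell strain, and the arrays do not read where a piece of DNA came from, so the origin of the stretch was not tested. A probe reads how much DNA binds its sequence of 60 bases, and fewer copies of a site and a changed sequence at that site cannot be told apart by 1 probe.

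Genomic DNA was taken from 4 renal cell carcinomas and 8 malignant lymphomas of C57BL/6 mice. The 6 tumours of Mutyh knockout mice were carcinomas KO1080, KO1097 and KO1134 and lymphomas KO1077 and KO1111 from mice treated with ferric nitrilotriacetate (Fe-NTA), and lymphoma KO1414 from an untreated mouse. The 6 tumours of wild-type mice were carcinoma WT1179 and lymphomas WT1113, WT1114 and WT1121 from treated mice, and lymphomas WT1405 and WT1420 from untreated mice. Fe-NTA is an iron chelate that causes oxidative damage in the tubules of the kidney. Treated groups began with 20 males each, injected into the abdomen 5 times a week for 12 weeks at a weekly schedule that began with 3 mg iron per kg and went to 5 mg for the other 11 weeks, and mice were killed at about week 120. Each tumour carries its own animal number. Every tumour was read against the same reference, DNA of normal C57BL/6 kidney, so a value is the log2 of tumour over reference signal. Here each array was centred on the median of its chromosome 4 probes outside the window. Values of the arrays as a whole bear on this in 3 ways. Carcinomas had lost chromosome 4 DNA, with uncentred medians outside the window between -0.71 and -0.23, against -0.18 to -0.01 in the lymphomas. Several pairs of arrays had similar profiles over 1 Mb bins, with the highest correlations in WT1113 with WT1114 (0.755), KO1080 with KO1097 (0.713) and KO1080 with WT1179 (0.706). Over the window's probes that did not differ, the highest were KO1077 with KO1111 (0.856) and KO1111 with WT1114 (0.85), all on slide 2. Each tumour is also left out in turn below. All 4 carcinomas lay on slide 1, so slide and tumour type cannot be told apart there.

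The labels were checked first at Mutyh itself, on mm9, the mouse build of the array files. The probe at chr4:116490496-116490555 read -2.50 ± 0.21 (SD, n = 6) in the knockouts and 0.02 ± 0.11 (SD, n = 6) in the wild types, a difference of -2.49 ± 0.10 (SE) with a limma adjusted p of 2.49e-08. Each of the 6 knockout tumours lay below each wild-type tumour, so every genotype label held. At chr4:116480656-116480715, the other Mutyh probe, knockouts read 0.14 ± 0.09 and wild types 0.13 ± 0.11, with a limma adjusted p of 0.971 and overlapping groups. The lowered signal thus covered 1 of the 2 Mutyh probes.

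The sequences below are those of the 4 probes with the largest lower differences, the 3 with the largest higher differences and the longest row of neighbouring calls, as the array files list them. The files do not state the strand. The first 4 are the largest lower differences.
chr4:107816653-107816712, in ENSMUST00000143340: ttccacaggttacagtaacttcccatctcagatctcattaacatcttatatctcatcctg
chr4:119519576-119519635, in Hivep3: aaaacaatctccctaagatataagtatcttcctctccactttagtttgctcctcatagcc
chr4:114106021-114106080, in Gm12824: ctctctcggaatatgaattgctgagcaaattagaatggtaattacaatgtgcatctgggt
chr4:118583231-118583290, in no named gene: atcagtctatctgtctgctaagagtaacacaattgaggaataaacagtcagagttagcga

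The next 3 are the largest higher differences.
chr4:115597830-115597889, in Dmbx1: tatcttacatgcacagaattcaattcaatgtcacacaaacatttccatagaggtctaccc
chr4:106144661-106144720, in no named gene: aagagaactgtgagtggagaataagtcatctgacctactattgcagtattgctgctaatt
chr4:117692547-117692606, in St3gal3: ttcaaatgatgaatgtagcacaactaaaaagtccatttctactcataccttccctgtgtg

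The last 5 are neighbours on the array and form the longest unbroken row of differing probes. They show that these are separate sequences and not copies of 1 probe.
chr4:121649423-121649482: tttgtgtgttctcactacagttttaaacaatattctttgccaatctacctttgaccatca
chr4:121667948-121668007: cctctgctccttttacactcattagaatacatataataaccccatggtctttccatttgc
chr4:121694712-121694771: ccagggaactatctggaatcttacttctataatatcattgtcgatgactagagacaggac
chr4:121724619-121724678: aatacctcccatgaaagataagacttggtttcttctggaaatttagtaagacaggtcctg
chr4:121767327-121767386: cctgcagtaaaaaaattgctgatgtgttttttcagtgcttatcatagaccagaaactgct

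The first question was how far the differing probes reach. Each probe was fitted with limma over all 12 tumours, with genotype, tumour type and treatment as terms, and a probe was called when its p-value, adjusted over all 161460 autosomal probes, was under 0.05. Of all autosomal probes, 0.102% were called lower and 0.0167% higher in the knockouts. Of the 3130 probes in the window, 53 were called lower and 16 higher, together 2.2%. Calls began at 105972069, which is 10.51 Mb before Mutyh, and ended with the probe at chr4:124895440-124895497, which is 8.41 Mb after it. Between these ends 69 of 1377 probes were called, or 5.01%. The ends were set by the calls, so by definition limma called 0 of the 730 probes before and 0 of the 1023 probes after. Of these probes, 25 and 49 had an unadjusted p under 0.05, which is 3.42% and 4.79%. On the rest of chromosome 4, limma called 0 of 6685 probes, and 272 of them, or 4.07%, had an unadjusted p under 0.05. Other autosomes had 5 calls among 151484 probes, or 0.0033%. The Skint cluster inside the stretch had 116 calls among 159 probes, or 73.0%, so the probes around the cluster differed far more sparsely than those within it.

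**Figure D1:**
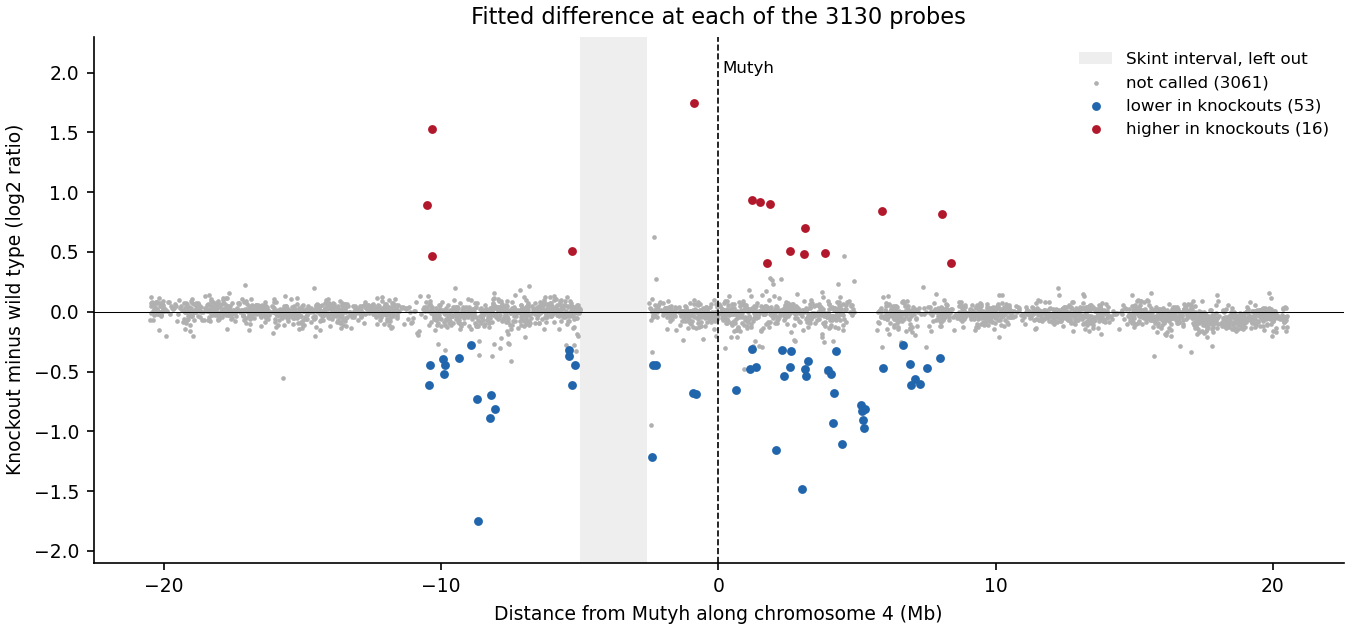
Fitted knockout minus wild-type difference (log2 ratio, vertical axis) at each of the 3130 probes against distance from Mutyh in Mb. Grey points were not called, blue points are the 53 called lower, red points the 16 called higher, and the shaded band is the Skint interval that was left out; called probes run from 10.51 Mb before to 8.41 Mb after Mutyh.

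A count that needs no model gave the same picture. All 6 knockout tumours lay below all 6 wild types at 66 of the 3130 probes, or 2.12%, and above them at 19, or 0.609%. Over all 161102 autosomal probes with values on every array, the shares were 0.199% below and 0.0912% above, and on the rest of chromosome 4 they were 0.045% and 0.03%. When a gap of at least 0.5 between the groups was required, 14 probes of the window lay below and 8 above, against 0.0683% and 0.00683% of all autosomal probes. The rest of chromosome 4 and the other autosomes held 0 probes with such a gap, so all other cases lay at Mutyh or in the Skint cluster.

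Outside the Skint cluster, probes that did not differ outnumbered those that did throughout the stretch. The spread of the fitted differences was 0.183 (SD over 1377 probes) between the first and the last call, against 0.0595 before and 0.0592 after. All calls fall inside the stretch because it was bounded by them, so this contrast is a description. Calls came at 3.88% of the 515 probes from the first call to the Skint cluster, 2.88% of the 208 probes from the cluster to Mutyh, and 6.57% of the 654 probes from Mutyh to the last call. The median distance from one call to the next was 94.3 kb, while the median spacing of all probes there was 10.1 kb. Of the 69 called probes, 54 had no called neighbour on the array, 10 lay in 5 pairs and 5 formed 1 row. In 3 of the 5 pairs, within Agbl4, Ccdc30 and Hivep3, the neighbours differed in opposite directions.

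In windows of 1 Mb, 15 of 40 held a call and 14 held at least 2. The windows with at least 2 calls began at 106 Mb and the last began at 124 Mb. The window that starts at 119 Mb held most, with 9 calls among 86 probes. The highest share, 20.8%, came from the window at 121 Mb, where 5 of 24 probes were called. The windows at 109, 110 and 116 Mb, the last of which contains Mutyh, held 0 called probes by limma among 84, 98 and 97 probes, of which 5, 6 and 4 had an unadjusted p under 0.05.

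**Figure D2:**
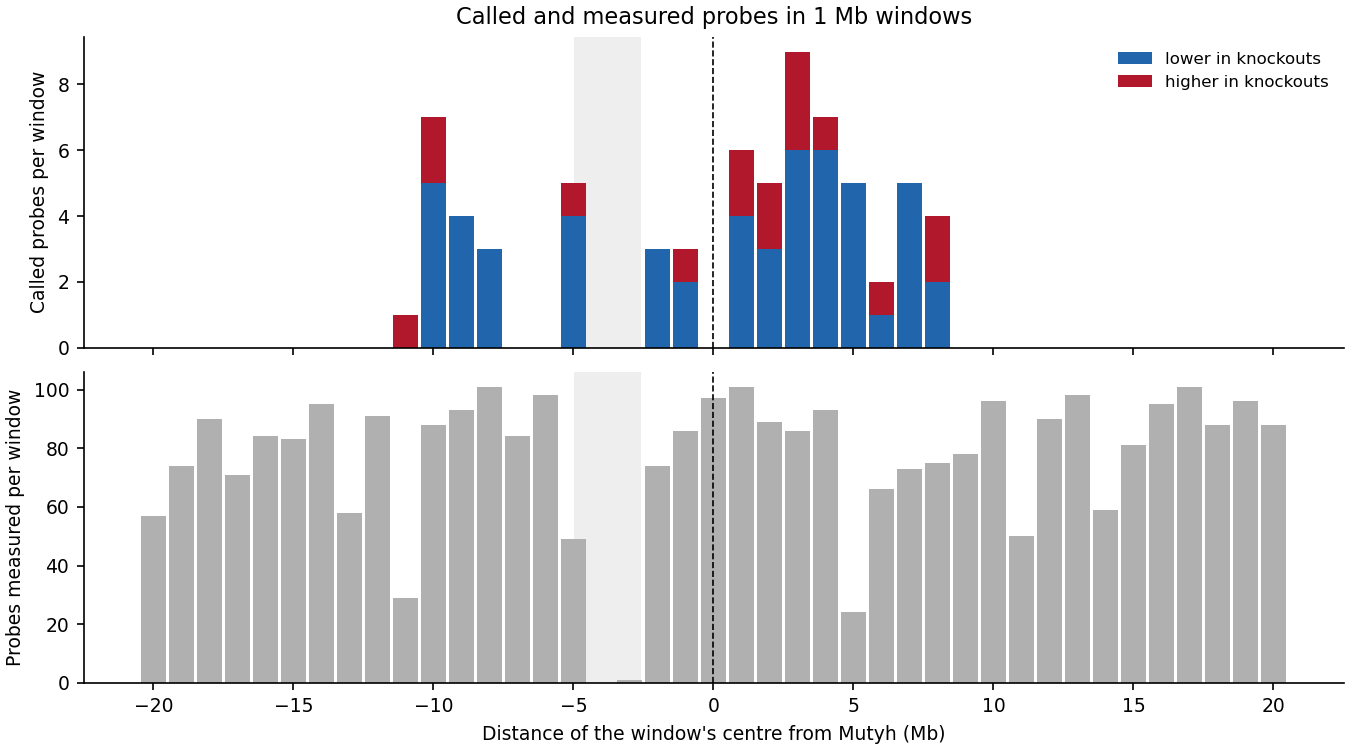
Upper plot: called probes per 1 Mb window, lower (blue) and higher (red) in knockouts, against the distance of the window's centre from Mutyh in Mb. Lower plot: probes measured in the same windows; the window around Mutyh had 97 measured probes and no call, and the shaded band is the Skint interval.

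Among the 3130 probes, calls therefore came in 5 groups, parted by more than 1 Mb in which none of these probes was called. The Skint cluster, left out here but with 116 calls among its 159 probes, lies between the second and the third group. The first ran from 105.97 Mb for 2.456 Mb and held 15 calls among 227 probes. Short groups followed at 111097085 to 111315197 in Agbl4, with 5 calls among 23 probes, at 114106021 to 114243228 in Gm12824, with 3 among 15, and at 115577328 to 115692474 around Dmbx1, with 3 among 11. The fifth ran from 117142641 to 124895497, or 7.753 Mb, with 43 calls among 589 probes. These bounds were drawn from the calls themselves and describe them only.

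In 3 of the 4 intervals between the groups, the differences had an SD of 0.061 to 0.077, against 0.0595 before and 0.0592 after the stretch. The intervals were chosen as lacking calls, which limits how wide they could spread, so these SDs are a description. From 108427954 to 111097085, a distance of 2.669 Mb, 249 probes had no call by limma (17 had an unadjusted p under 0.05), and their fitted differences ran from -0.42 to 0.21 with an SD of 0.077. Mutyh itself lay in an interval of 1.45 Mb with 143 uncalled probes (9 with an unadjusted p under 0.05), whose differences ran from -0.31 to 0.13 with an SD of 0.064. The nearest called probes stood 788 kb before and 652 kb after the Mutyh probes. From 114243169 to 115577328, 96 probes had an SD of 0.061, and 5 had an unadjusted p under 0.05. The fourth interval, from 111315138 to 114106021, is mostly the Skint cluster, and its other 24 probes had a wider spread, with an SD of 0.22 and differences from -0.95 to 0.11. The position of Mutyh was thus not the place of most calls in the stretch.

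Among the probes with the lowest knockout signal, the one at chr4:107816653-107816712 stood first. Its knockout values were -1.93 at the lowest, -1.72 at the median and -1.66 at the highest, and its wild-type values -0.06, 0.01 and 0.12. The fitted difference was -1.75 ± 0.06 (SE), a 3.37-fold lower ratio, with a limma adjusted p of 5.08e-09. The knockouts, carcinomas and lymphomas alike, kept within a narrow band far below all wild types. Fitted differences are adjusted for tumour type and treatment and so can differ slightly from the difference of the means.

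Hivep3 encodes a large zinc finger transcription factor and held the second lowest probe, at chr4:119519576-119519635. Knockout tumours read -1.59, -1.43 and -1.23 as lowest, median and highest value, and wild types 0.01, 0.09 and 0.22. This is a fitted difference of -1.48 ± 0.05 (SE) or 2.79-fold, with a limma adjusted p of 1.24e-08. The groups were apart by over 1 log2 unit.

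Gm12824, now named Trabd2b and encoding an inhibitor of Wnt proteins, held the third, at chr4:114106021-114106080. There the knockouts ran from -1.48 through a median of -1.34 to -1.21, and the wild types from -0.25 through -0.10 to 0.02. The difference was -1.21 ± 0.05 (SE), with a limma adjusted p of 2.51e-08, and no values overlapped. The fourth, at chr4:118583231-118583290, lies in no named gene. Its knockouts ran from -1.75 through -1.18 to -1.0 and its wild types from -0.13 through -0.05 to 0.09, a difference of -1.16 ± 0.10 (SE) with a limma adjusted p of 8.55e-05. The lowest of these knockouts, carcinoma KO1134, lay apart from the other 5.

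The name AY082013, which matched no current gene symbol, held the fifth and the seventh lowest. At chr4:120944287-120944346 knockouts read -1.39, -1.23 and -1.07 and wild types -0.33, -0.12 and 0.04 as lowest, median and highest, a difference of -1.11 ± 0.07 (SE) with a limma adjusted p of 5.18e-06. At chr4:120636552-120636611 they read -0.91, -0.86 and -0.75 against -0.03, 0.09 and 0.28, a difference of -0.93 ± 0.05 (SE) with a limma adjusted p of 2.45e-07. Both probes separated the genotypes, and the other 15 probes under this name were not called.

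Orc1, the largest subunit of the complex that marks origins of DNA replication, had 1 called probe among 4. At chr4:108253825-108253884 the knockouts ran from -1.08 through -1.01 to -0.69 and the wild types from -0.13 through 0.03 to 0.06. The difference was -0.89 ± 0.07 (SE), with a limma adjusted p of 2.19e-05, and the groups did not overlap. With another background correction, normexp, the difference at this probe was smaller, at -0.48 with a limma adjusted p of 0.0038. The other 3 Orc1 probes were not called.

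The row of 5 neighbouring probes spanned chr4:121649423-121767386, or 118 kb, in no named gene. Its fitted differences lay between -0.97 and -0.78, with a mean of -0.86. Knockout values over the 5 probes ran from -1.15 to -0.74 and wild-type values from -0.25 to 0.12. All 5 thus fell by a similar amount in all 6 knockouts, while the single calls elsewhere in the window differed widely in size and direction. The row is flanked by intervals of 0.705 Mb with 24 probes and 0.633 Mb with 11 probes in which none was called.

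Of the 16 probes with higher knockout signal, the one in Dmbx1, a homeobox gene of the developing brain, differed most. At chr4:115597830-115597889 the knockouts ran from 1.72 through 1.79 to 1.86 and the wild types from -0.15 through -0.01 to 0.40. The difference was 1.75 ± 0.09 (SE), a 3.36-fold higher ratio, with a limma adjusted p of 3.23e-07. The other 2 of the 3 Dmbx1 probes were not called. The next called probes on either side, at 115577328 and 115692415 outside the gene, were lower by -0.68 and -0.69. Higher and lower signal thus stood 0.021 Mb apart, with 1 uncalled probe between them.

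At chr4:106144661-106144720, in no named gene, the knockouts ran from 1.44 through 1.85 to 2.24 and the wild types from -0.10 through 0.04 to 0.65, a difference of 1.53 ± 0.05 (SE) with a limma adjusted p of 4.81e-09. The high wild-type value was that of carcinoma WT1179, and the 3 knockout carcinomas, with a mean of 2.17, stood above the 3 knockout lymphomas, with a mean of 1.52. Measured from the autosomal median instead, the carcinoma mean was 1.74 and the lymphoma mean 1.49, WT1179 read -0.07, and the within-group SD fell from 0.323 to 0.151. At this probe the tumours of a genotype thus lay closer together when measured from the autosomal median, and the reason was not tested. Of the 69 called probes, 4 had a smaller within-group SD from the autosomal median than from that of chromosome 4, the other 3 being in Ssbp3, St3gal3 and AF003867.

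The next 3 higher probes were of similar size. St3gal3, a sialyltransferase gene, read 0.71, 0.87 and 1.07 in knockouts and -0.16, -0.07 and 0.02 in wild types at chr4:117692547-117692606, as lowest, median and highest, a difference of 0.94 ± 0.05 (SE) with a limma adjusted p of 9.26e-07. The probes at 117995542 and 118366213, in no named gene, were higher by 0.92 ± 0.06 and 0.90 ± 0.04, with limma adjusted p-values of 3.51e-06 and 1.36e-07. At 118366213 the knockouts kept between 0.65 and 0.74. In each of the 3 the 6 knockouts lay above the 6 wild types.

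The first and last calls of the stretch were both higher in knockouts. The first, at chr4:105972069-105972128, ran from 0.96 through 1.17 to 1.30 in knockouts and from 0.12 through 0.18 to 0.27 in wild types, a difference of 0.89 ± 0.05 (SE) with a limma adjusted p of 9.16e-07. The last, at chr4:124895440-124895497, ran from 0.31 through 0.43 to 0.55 in knockouts and from -0.03 through 0.01 to 0.16 in wild types, a difference of 0.41 ± 0.05 (SE) with a limma adjusted p of 0.00289. Both kept the genotypes apart. The last was the 1 called probe found inside a RefSeq promoter window on chromosome 4, that of Gm40244 in GRCm38, and 8 of the 3130 probes lay in any such window. Nearest to Mutyh, the probe at 115692415 was lower by -0.69 ± 0.04 (SE) and the probe at 117142641 in Rnf220, a ubiquitin ligase gene, by -0.65 ± 0.06 (SE), with limma adjusted p-values of 3.48e-06 and 8.15e-05.

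**Figure D3:**
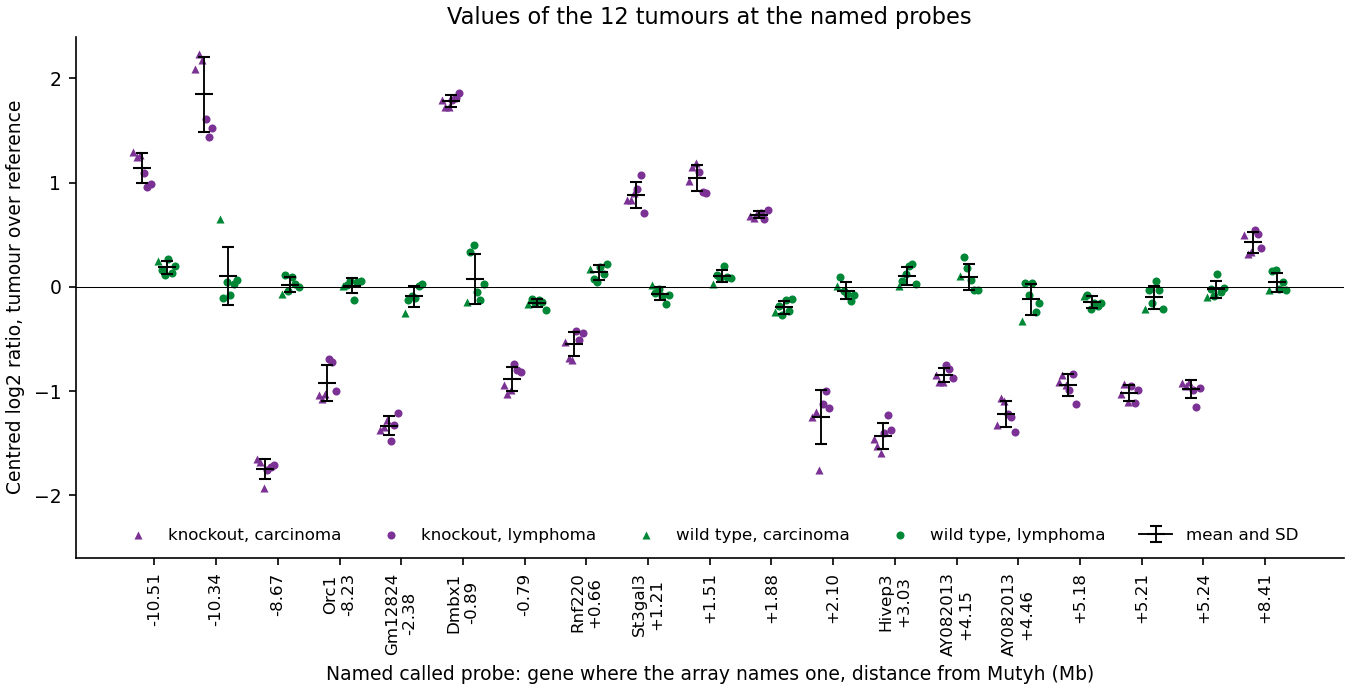
Centred log2 ratio of tumour over reference (vertical axis) of the 12 tumours at 19 called probes, ordered by distance from Mutyh. Purple marks knockouts, green wild types, triangles carcinomas and circles lymphomas, with bars for mean and SD (n = 6); the wild-type carcinoma WT1179 at 0.65 stands out at the second probe from the left.

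Over all calls, the median difference was -0.52 among the 53 lower and 0.76 among the 16 higher probes. Differences of at least 1 were seen at 5 lower and 2 higher probes, and of at least 0.5 at 39 in all. At 64 of the 69 the genotypes did not overlap. The 5 with overlap were 1 probe each in Usp24, Agbl4, St3gal3, Kdm4a and AF003867.

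Few genes of the stretch held more than 1 call. The arrays name 250 genes with probes between the first and the last call, of which 29 held a call and 7 held at least 2. Hivep3 had 6 calls among 31 probes, 4 lower and 2 higher, with differences from -1.48 to 0.70 and a median over all its probes of -0.015. Agbl4, which encodes an enzyme that trims glutamate from tubulin, had 5 among 125, 4 lower and 1 higher, from -0.61 to 0.51. Its calls all lay within 0.218 Mb, while its probes span 110077266 to 111325860. Gm12824 had 3 lower among 23, and St3gal3 had 2 lower and 1 higher among 22. Usp24, a ubiquitin protease gene, had 2 lower among 10, AY082013 had 2 lower among 17, and Ccdc30 had 1 lower and 1 higher among 11, at -0.46 and 0.51. The median over all probes of a gene stayed between -0.04 and 0.03 in these 7 genes, so in each of them the called probes were the exception.

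Single calls met several genes of known function. Lower signal was found at 1 probe each of Scp2, the sterol carrier protein (-0.73), Slc2a1, the glucose transporter GLUT1 (-0.32), Kdm4a, a histone demethylase (-0.46), Nfyc, a subunit of the transcription factor NF-Y (-0.49), Mtf1, the metal-responsive transcription factor (-0.39), Macf1, a crosslinker of microtubules and actin (-0.28), and Col9a2, a collagen chain (-0.33). Higher signal was found at 1 probe of Wdr65 (0.41). Which exon or intron such a probe lies in was not analysed here. Of the 69 calls, 24 lay in no named gene, or 34.8%, against 26.4% of all 3130 probes.

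4 lists of genes near Mutyh were counted, chosen with earlier results of these data known, and beside them stand the median of -0.01 over all 3130 probes and the 2.2% of these that were called, or 5.01% within the stretch. Of the repair and redox neighbours, 10 genes had 20 probes, of which 1, in Orc1, was lower, with a list median of -0.04. Of those nearest to Mutyh, Prdx1, a peroxide-removing enzyme, was at -0.02, Nasp, a histone chaperone, at a median of -0.04, and Plk3, a kinase of the stress response, at -0.10, the lowest gene median of this list. Rad54l, of recombination repair, was at 0.02. The Cyp4 genes, which encode fatty acid hydroxylases of kidney and liver, had 0 calls by limma among 12 probes of 7 genes, of which 0 had an unadjusted p under 0.05, with a list median of -0.005 and gene medians from -0.04 to 0.03. Among 20 tumour and signalling genes with 115 probes, 1 probe was lower, in Slc2a1, with a list median of -0.005. Tal1 and Stil, which mark a T-cell leukaemia locus, had medians of -0.08 and 0.02, and Cdkn2c, an inhibitor of cyclin-dependent kinases, had -0.08 at its 1 probe. Of 8 lipid and kidney genes with 36 probes, 1 probe was lower, in Scp2, with a list median of -0.01.

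Whether each tumour shared the pattern was asked with fits that left that tumour out. The probes called among the other 11 were then read in the tumour itself, and a probe was counted on the knockout side when the tumour lay nearer to the mean of the other knockouts than to that of the other wild types. Knockout carcinoma KO1080 was on the knockout side at 59 of 62 such probes, KO1097 at 61 of 67 and KO1134 at 66 of 66. Knockout lymphomas KO1077, KO1111 and KO1414 were on that side at 55 of 56, 57 of 58 and 51 of 51. Each of these 6 was on the knockout side both at 105972069 and at 124895440, and the median share of the group difference that a knockout showed lay between 0.93 and 1.09. All 6 knockouts thus shared most of the called differences from 1 end of the stretch to the other, with nearly the same median size.

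Wild types read the other way. Carcinoma WT1179 was on the wild-type side at 57 of 61 probes, and the lymphomas at 59 of 60 (WT1113), 58 of 59 (WT1114), 67 of 73 (WT1121), 57 of 58 (WT1405) and 60 of 60 (WT1420). Their median share of the group difference lay between -0.03 and 0.07. The exceptions of WT1121 were single probes, among them Usp24 at -0.30, Eps15 at -0.12 and AF003867 at -0.39.

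**Figure D4:**
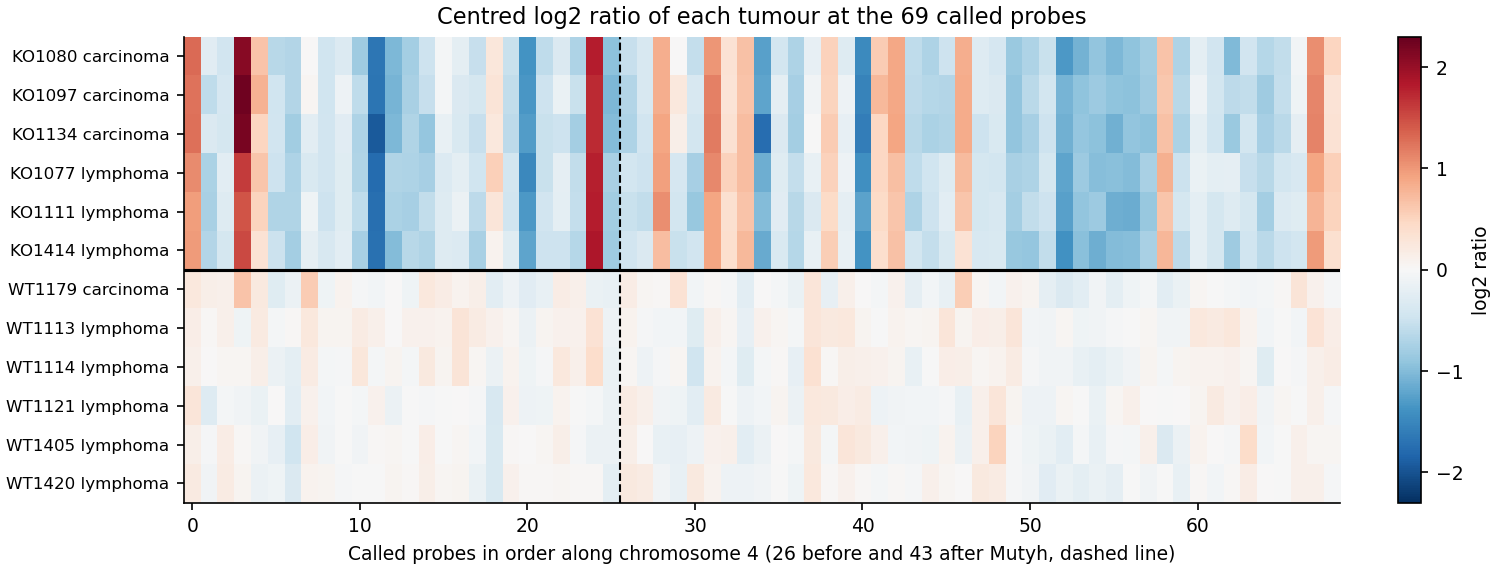
Centred log2 ratio (colour) of each of the 12 tumours (rows, 6 knockouts above the black line and 6 wild types below) at the 69 called probes (columns, in order along the chromosome from 0; the dashed line is Mutyh). Most columns have 1 colour in all 6 knockouts, blue for lower or red for higher, and are pale in the wild types. Exceptions include carcinoma WT1179 at 0.65, 0.58 (Ssbp3) and 0.57 (AF003867), and lymphomas WT1405 at 0.50 (ENSMUST00000132895) and WT1114 at -0.46 (Kdm4a). Another is the St3gal3 probe where the knockout carcinomas read 0.01 to 0.23 and the knockout lymphomas -0.51 to -0.39.

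The differences were also read within slides and tumour types. On slide 1, with 3 knockout carcinomas against 1 wild type, the median over the 53 lower probes was -0.58 and over the 16 higher probes 0.81. On slide 2, with 2 against 2 lymphomas, these were -0.51 and 0.60, and on slide 3, with 1 against 3, -0.54 and 0.74. All 53 lower and all 16 higher probes kept their direction on each slide, which is a description, since the same arrays had chosen the probes. In the 8 lymphomas the medians were -0.52 and 0.70. A test of whether the genotype difference itself differed between carcinomas and lymphomas called 0 of the 69 probes with limma, while 6 had an unadjusted p under 0.05, or 8.7%. It called 10 of the 3130 probes, against 6.05% of all autosomal probes, and WT1179 is the only wild-type carcinoma in that test. Its unadjusted p was under 0.05 at 7.6% of the 3130 probes and at 13.5% of all autosomal probes tested. The 8.7% of the called probes thus lay below the share of all autosomal probes.

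The difference lay mainly in the tumour channel. At 69 of 69 called probes the red tumour signal differed more between genotypes than the green reference signal. Green differed in the direction opposite to red at 43 of them, which adds to the ratio, and in the same direction at 26. At the Kdm4a probe green came close in size, with 0.183 against -0.225 in red. The largest green difference was 0.474, at the Hivep3 probe at 119563654, against 0.998 in red. Over the lower probes the median knockout minus wild-type difference was -0.55 in red and 0.02 in green (log2 signal), and over the higher probes 0.83 and -0.03. The median GC content was 36.7% in lower, higher and uncalled probes of the stretch. Over all 3130 probes the quartiles were 36.7% and 38.3%, a range too narrow for these medians to tell the sets apart. The median green signal was 10.49 (log2) for lower, 10.02 for higher and 10.17 for uncalled probes. None of the 69 was at background on any array, against 6 of the 3130 probes that were on at least 1.

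Some probes with a large difference were not called. 4 had a difference of at least 0.5 without passing the test, and they are named here because of their values. At chr4:114077209-114077268, beside Gm12824 and just after the Skint cluster, the knockout carcinomas read -1.65, -1.66 and -1.96, while lymphomas KO1077, KO1111 and KO1414 read -0.35, -0.10 and -1.07 and wild types kept between -0.06 and 0.28. The fitted difference was -0.95 ± 0.22 (SE) with a limma adjusted p of 0.554, and the genotypes did not overlap. In Gm12824 at 114167253 the difference was 0.62 with a limma adjusted p of 0.826. AF003867 at 120362878 was at -0.50 with 0.474, by limma.

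The count of calls depends on the centring. With each array centred on the median of all its autosomes, 21 probes were called lower and 15 higher, and the within-group SD at the lower calls rose from a median of 0.097 to 0.29. The ends of the stretch were the same in that fit and in each of the 12 fits that left out 1 tumour, which gave between 51 and 73 calls.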

How the data were processed

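DNA of 12 mouse tumours (Cy5) was hybridised with a common reference (Cy3), 1 array per tumour, on 3 slides of 4. Agilent Feature Extraction 10.7.1.1 made the deposited intensity columns, per the file headers, by background subtraction, detrending and its linear dye normalization, and gave probe positions on mm9. Per the file headers, the deposited log10 ratio is that of processed red over green. The authors' deposited series-wide table holds uncentred log2 ratios, found by comparison with the scanner values; both were alternatives.

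Here the processed red signal was divided by the green on a log2 scale, outlier spots were left out, and spots of 1 probe were averaged. Chromosome 4 was centred on its probes outside the window, other autosomes on their own median. limma 3.58.1 in R 4.3.3 fitted genotype, tumour type and treatment to 161460 autosomal probes, with Benjamini-Hochberg adjustment over all of them and calls at an adjusted p under 0.05. Of the 3130 probes, 10 lacked a value on at least 1 array and were fitted on the others. The number of arrays limits the precision. The fit was tested on simulated data.

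Named probes were the 10 lowest and 5 highest calls, the first and last call, those nearest Mutyh on each side, genes with at least 2 calls, and 4 gene lists. Others that were chosen after their values were seen are the uncalled probes, the genes with a single call, the exceptions by tumour and the probes with a smaller spread from the autosomal median. Members and lists were chosen with earlier results of these data known. Gene names are those of the array files; 395 of 558 matched a current symbol, and no mm9 annotation was used here. Alternatives were other centrings, the other ratios, normexp with an offset of 50, filters, models, thresholds and leaving out each tumour.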

Additional observations from a re-analysis of the deposited data

Results flagged for a closer look

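At the 19 named probes, each genotype's 6 tumours were examined for a value far from the others, which chance gives in about 1 of 20 groups; 4 of 38 groups held one. In the wild types, carcinoma WT1179 stood at 0.65 at chr4:106144661-106144720, far above the other 5, and lymphoma WT1121 stood at -0.13 at the Orc1 probe, below the others. In the knockouts, carcinoma KO1134 stood at -1.75 at chr4:118583231-118583290, and lymphoma KO1111 at -1.15 at chr4:121724619-121724678 in the row of 5 probes. In all 4 cases the tumour remained on the side of its own genotype.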

How the results depend on the processing

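Centring on the autosomal median gave 21 lower calls and 1.15% of the 3130 probes called, against 53 and 2.2%. Asking also for a difference of at least 0.5 gave 28 lower calls and 1.25%, and took the last probe, at 0.41, out of the calls. Asking that each knockout lie at least 0.5 from each wild type gave 14 lower and 8 higher, or 0.703%, a last probe at 122.4 Mb, and 7 windows with at least 2 calls, from 108 to 121 Mb. The other 211 summary values stayed on their side or within 1.5 times, and so did 493 values of named probes, and none reversed. Some of these could hardly change. Agilent's log ratio and the authors' table hold nearly the same ratio as used here, and a stricter threshold leaves a named probe's difference as it was. Leaving out 1 tumour gave 39 (without KO1414) to 57 (without WT1121) lower and 12 to 16 higher calls. The slide block gave 79 calls, 68 of them among the 69, and the lymphomas alone 56, of which 54 were. Without WT1113 or WT1114, 60 and 59 were called, and without KO1080, KO1097 or WT1179, 62, 67 and 61. No paired analysis was possible because the labels number animals, and no number occurs in both genotypes. The stretch had 1 probe per 10.1 kb, but only 5.01% of its probes were called. Outside the Skint cluster, intervals without a call inside the stretch reached 2.669 Mb, with 249 probes. The ends are thus known only as the first and last called probe. How far beyond them differing sequence may run was not tested.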

Other observations

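Outside the stretch, 2 loci are given as values, chosen after they were seen. Pemt, a phosphatidylcholine synthesis gene on chromosome 11, had 1 probe at chr11:59819865-59819924 that read 0.80 ± 0.18 (SD, n = 6) in knockouts and -0.03 ± 0.13 (SD, n = 6) in wild types, a difference of 0.91 with a limma adjusted p of 3.55e-05. It had the largest difference of the 5 calls on autosomes other than chromosome 4.

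Raver2, at chr4:100803778-100803837 before the stretch, had the widest difference of the window's probes outside it, at -0.56 with a limma adjusted p of 0.826. Lymphomas WT1121, WT1405 and WT1420 read 1.36, 1.79 and 1.26 and all lay on slide 3, while KO1414 on the same slide read 0.10. The other 8 tumours lay between -0.13 and 0.51. Whether slide or tumour type plays a part at this probe was not tested.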
